A study of Mus musculus with 24 samples.

Results

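The 10 macrophage genes Adgre1, Cd68, Csf1r, Mrc1, C1qa, C1qb, C1qc, Lyz2, Cd14 and Trem2 were followed through cartilage explants of the mouse. They were picked out by their symbols from the 52178 genes of the count table, and all 10 passed the filter on low counts that left 21283 genes to be tested. Hip caps carried more RNA of the endotoxin co-receptor Cd14 than metatarsals at each pressure, and more of the growth factor receptor Csf1r after 5 and 50 MPa. The 3 C1q genes were not part of that excess. After pressure, Cd14 in hip caps at 50 MPa was the single member that passed edgeR's test, and in metatarsals no member did. That call of Cd14 with pressure was lost without certain single libraries and in hip caps fitted alone, and DESeq2 also called Cd68 in hip caps.

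Macrophages are phagocytes that settle in almost every tissue and clear dying cells, debris and microbes. They depend on signals through the receptor encoded by Csf1r, and their identity rests on the transcription factor PU.1, encoded by Spi1. In joints they line the synovium and lie in the marrow and the vessels of growing bone, whereas healthy cartilage is avascular and holds few of them. Osteoclasts, the bone-resorbing cells, arise from the same lineage under the same receptor and also express Csf1r and Cd68.

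The study compared the effect of hydrostatic pressure on gene expression between articular and growth plate cartilage. Hip caps, the avulsed cartilage of the femoral head without the bone beneath, came from male C57/BL6 mice that were 4 weeks old, with both caps of a mouse in a sample. Metatarsals came from C57/BL6 embryos at day E15, with 6 rudiments in a sample and the sex unknown. All explants were unmodified genetically, were kept in culture for 24 h, spent 1 h in a pressure vessel and were cultured for 24 h more, the control groups at 0 MPa and the others at 5 or 50 MPa. This gave 6 groups of 4 libraries of total RNA, named hip controls, 5 MPa hip caps, 50 MPa hip caps, metatarsal controls, 5 MPa metatarsals and 50 MPa metatarsals. The comparison of tissues is also one of age and culture medium, which cannot be told apart.

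Library totals ranged from 4185241 to 25104240 estimated counts. Hip control replicate 4 and 50 MPa hip cap replicate 2 stood apart from their groups and were left out by the study, so 22 libraries entered the tests, and both are described separately below. The hip cap label held against 10 chondrocyte markers, whose summed level was 22430 to 78490 CPM (counts scaled to 1e6 a library) in the hip caps used and 1907 to 5045 CPM in metatarsals, where 8 skeletal muscle markers summed to 434 to 2502 CPM against 18.1 to 50.4 CPM in hip caps. As far as the run is known, the 3 hip controls used were all sequenced in run 1 and the 5 MPa hip caps all in run 2, so the term for the run in that comparison rests mainly on the metatarsal controls, of which replicate 1 was in run 1. The same holds for the comparison of the tissues in controls, since the other metatarsal controls were in run 2. CPM values below are scaled by the trimmed mean of M-values (TMM), and a change is called where edgeR's quasi-likelihood test gave a Benjamini-Hochberg adjusted p of at most 0.05 over the 21283 genes.

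**Figure D1:**
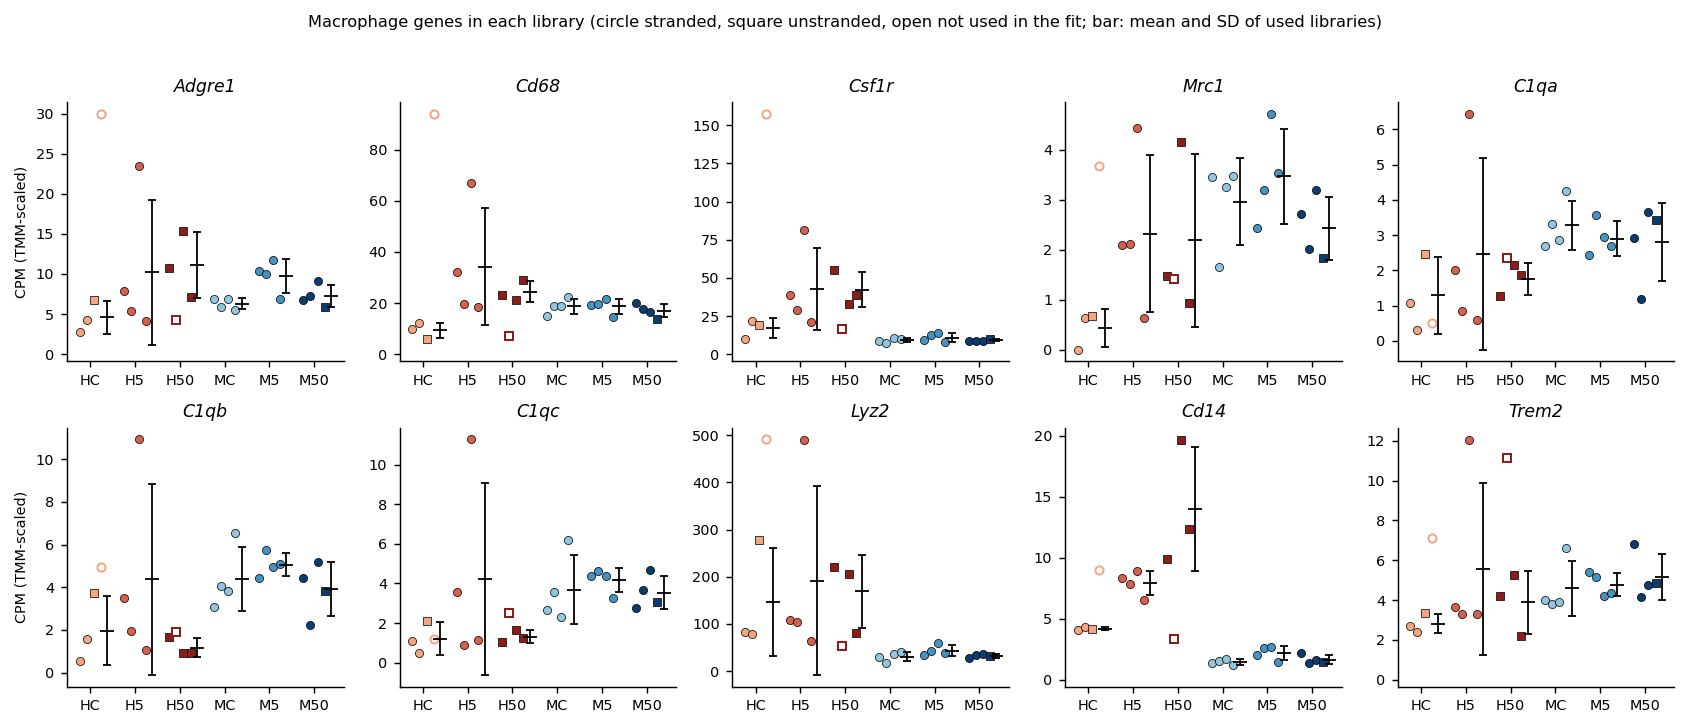
TMM-scaled CPM of the 10 macrophage genes (vertical axes) in each of the 24 libraries for hip caps (HC control, H5 5 MPa, H50 50 MPa) and metatarsals (MC, M5 and M50 likewise), with circles for stranded and squares for unstranded libraries and bars for the mean and SD of the libraries used. Open markers are hip control replicate 4 and 50 MPa hip cap replicate 2, which were left out of the tests, and metatarsal libraries lie close together in most panels, whereas 5 MPa hip caps spread widely with replicate 3 at the top.

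Per kilobase of exon, the order of the members differed between the tissues. In hip controls the mean level was highest for Lyz2 at 111 CPM per kb, followed by Cd68 at 7.42, Csf1r at 3.44, Cd14 at 2.55 and Trem2 at 2.46 CPM per kb, and lowest for Mrc1 at 0.081 CPM per kb. In metatarsal controls Lyz2, at 23.3 CPM per kb, was followed by Cd68 at 14.9, C1qb at 4.03, Trem2 at 4.01, C1qa at 3.15 and C1qc at 3.06 CPM per kb, with Csf1r at 1.85 and Cd14 at 0.870 CPM per kb near the end. Many neighbours in these orders lay within the spread of the libraries, such as C1qb (4.03 ± 1.39 CPM per kb, SD, n = 4) and Trem2 (4.01 ± 1.20) in metatarsal controls. In bulk RNA, fewer cells of a type and less RNA per cell cannot be told apart.

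Csf1r (ENSMUSG00000024621), the receptor for CSF1 and IL-34 that keeps macrophages and osteoclast precursors alive, was measured at 10.1, 21.96 and 19.3 CPM in the 3 hip controls. It stood at 38.8, 29.3, 81.2 and 20.8 CPM in 5 MPa hip caps and at 54.9, 33.0 and 39.0 CPM in 50 MPa hip caps. The 12 metatarsal libraries held between 7.60 and 13.9 CPM. Every hip cap library under pressure thus lay above every metatarsal library, while the lowest hip control fell inside the metatarsal range. The log2 fold change of hip caps against metatarsals was 0.87 ± 0.52 (SE) in controls (adjusted p = 0.224, edgeR), 1.97 ± 0.34 at 5 MPa (adjusted p = 0.00017) and 2.08 ± 0.55 at 50 MPa (adjusted p = 0.0114). At 50 MPa the call was lost without 50 MPa metatarsal replicate 4, the unstranded library there (2.08, adjusted p = 0.272), and on library sizes alone (1.102, adjusted p = 0.106). Of the 32-gene list of other macrophage genes, Laptm5, a lysosomal membrane protein of blood cells, had a like course, with 13.4 CPM in hip controls, 36.1 and 32.5 CPM after 5 and 50 MPa, and 6.65 to 8.97 CPM in the metatarsal groups.

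Cd14 (ENSMUSG00000051439), which hands bacterial lipopolysaccharide to TLR4, separated the tissues most evenly. It was measured at 4.08, 4.30 and 4.19 CPM in hip controls, at 8.34, 7.87, 8.92 and 6.54 CPM in 5 MPa hip caps, and at 9.91, 19.7 and 12.4 CPM in 50 MPa hip caps. Metatarsal controls held 1.34, 1.55, 1.66 and 1.16 CPM, the 5 MPa metatarsals 2.02, 2.60, 2.65 and 1.44 CPM, and the 50 MPa metatarsals 2.18, 1.34, 1.62 and 1.45 CPM. Of the libraries used, no hip cap library overlapped a metatarsal library, and the 3 hip cap groups did not overlap each other. The libraries left out broke the order of the hip cap groups. Hip control replicate 4, at 8.98 CPM, lay above all 5 MPa hip caps, and 50 MPa hip cap replicate 2, at 3.30 CPM, below the other controls. Hip caps at 5 and 50 MPa were not tested against each other. Behind these levels were 7 to 284 counts a library. The log2 fold change of hip caps against metatarsals was 1.69 ± 0.42 in controls (adjusted p = 0.00428, edgeR), 1.87 ± 0.24 at 5 MPa (adjusted p = 2.75e-06) and 3.26 ± 0.42 at 50 MPa (adjusted p = 9.02e-06). The call in controls was lost without hip control replicate 3 (1.64, adjusted p = 0.0537), metatarsal control replicate 1 (1.74, adjusted p = 0.0774) or 50 MPa metatarsal replicate 4 (1.63, adjusted p = 0.0551), and on library sizes alone (0.84, adjusted p = 0.256).

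Trem2 (ENSMUSG00000023992), a lipid-sensing receptor of macrophages, osteoclasts and microglia, was not called in any comparison. It ranged from 2.39 to 3.33 CPM in hip controls, from 3.27 to 12.1 CPM in 5 MPa hip caps and from 2.17 to 5.27 CPM in 50 MPa hip caps, against 3.80 to 6.81 CPM in all metatarsals. Hip controls lay below metatarsal controls without overlap, but with a log2 fold change of -0.55 ± 0.56 the gene missed the threshold (adjusted p = 0.496, edgeR).

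Mrc1 (ENSMUSG00000026712), the mannose receptor CD206 of resident, anti-inflammatory macrophages, was the scarcest member in hip controls, at 0, 0.64 and 0.67 CPM, from 0 to 7 counts. It stood at 2.08, 2.11, 4.43 and 0.63 CPM in 5 MPa hip caps and at 1.48, 4.16 and 0.93 CPM in 50 MPa hip caps, and ranged from 1.66 to 4.71 CPM in metatarsals. Hip controls lay below all metatarsal libraries, and the pressurised hip caps overlapped them. In controls the log2 fold change of hip caps against metatarsals was -2.39 ± 0.84 (adjusted p = 0.0369, edgeR). That call was lost without any 1 of the 3 hip controls, metatarsal control replicates 1 or 4, or 50 MPa metatarsal replicates 2 or 4, over which the log2 fold change ran from -3.13 to -1.52 and the adjusted p from 0.0502 to 0.493. At these counts the size of the difference is poorly fixed.

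Lyz2 (ENSMUSG00000069516), the lysozyme of macrophages and neutrophils, made up 46.0 to 85.1% of all counts of the 10 members in hip caps and 25.08 to 45.5% in metatarsals. It was measured at 81.8, 78.9 and 278 CPM in hip controls, at 109, 103, 490 and 64.4 CPM in 5 MPa hip caps, and at 220, 206 and 80.8 CPM in 50 MPa hip caps. Metatarsal libraries held 16.9 to 59.4 CPM. Every hip cap library used lay above every metatarsal library, yet the spread within each hip cap group was wide. The log2 fold change of hip caps against metatarsals was 2.05 ± 0.81 in controls (adjusted p = 0.0685, edgeR), 2.16 ± 0.57 at 5 MPa (adjusted p = 0.00733) and 1.94 ± 0.95 at 50 MPa (adjusted p = 0.182). The call at 5 MPa was lost on library sizes alone (1.497, adjusted p = 0.0672). By sequence, 32.8% of the 31-base words of Lyz2 are shared with its neighbour Lyz1, which was listed at a mean of 1.09 to 1.66 CPM in the hip cap groups and 0 to 0.032 CPM in the metatarsal groups.

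Cd68 (ENSMUSG00000018774), a glycoprotein of late endosomes and lysosomes, was measured at 9.78, 12.1 and 6.10 CPM in hip controls, below all 4 metatarsal controls at 14.9, 19.0, 18.8 and 22.2 CPM. It stood at 32.0, 19.7, 67.1 and 18.3 CPM in 5 MPa hip caps and at 23.1, 21.1 and 29.1 CPM in 50 MPa hip caps, whereas metatarsals held 14.5 to 21.6 CPM at 5 MPa and 13.9 to 19.8 CPM at 50 MPa. Among the libraries used, the order of the tissues was thus the opposite in the controls and in the 50 MPa groups, with no overlap in either. The libraries left out broke this order. Hip control replicate 4, at 93.8 CPM, lay above every metatarsal control, and 50 MPa hip cap replicate 2, at 7.08 CPM, below every 50 MPa metatarsal library. With hip control replicate 4 kept, the fitted change in controls was above 0. The log2 fold change of hip caps against metatarsals was -0.79 ± 0.47 in controls (adjusted p = 0.220, edgeR), 0.87 ± 0.30 at 5 MPa (adjusted p = 0.0287) and 0.97 ± 0.47 at 50 MPa (adjusted p = 0.170). The call at 5 MPa was lost without 5 MPa hip cap replicate 3 (0.39, adjusted p = 0.106), without 5 MPa metatarsal replicate 4 (0.84, adjusted p = 0.0577), on library sizes alone (0.22, adjusted p = 0.518), and without a filter on low counts (0.93, adjusted p = 0.0667).

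Adgre1 (ENSMUSG00000004730), which encodes the macrophage surface protein F4/80, was measured at 2.72 to 6.76 CPM in hip controls, 4.10 to 23.5 CPM in 5 MPa hip caps and 7.12 to 15.4 CPM in 50 MPa hip caps, against 5.48 to 11.8 CPM in metatarsals. The tissues overlapped at each pressure, and no comparison of the tissues passed the test for this gene.

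C1qa (ENSMUSG00000036887), C1qb (ENSMUSG00000036905) and C1qc (ENSMUSG00000036896) encode the 3 chains of C1q, the recognition protein of the classical complement pathway, and lie side by side on chromosome 4. The 3 hip controls held 0.54, 1.59 and 3.72 CPM of C1qb, the 5 MPa hip caps 3.51, 1.97, 10.9 and 1.07 CPM, and the 50 MPa hip caps 1.69, 0.90 and 0.93 CPM. Metatarsals ranged from 3.06 to 6.56 CPM in controls, 4.44 to 5.73 CPM at 5 MPa and 2.23 to 5.17 CPM at 50 MPa. At 50 MPa every hip cap library was below every metatarsal library for C1qb and C1qc, with log2 fold changes of -1.88 ± 0.83 (adjusted p = 0.129, edgeR) and -1.40 ± 0.92 (adjusted p = 0.337). C1qa and C1qc were likewise lower without overlap in hip controls, at 0.32 to 2.48 and 0.48 to 2.10 CPM against 2.68 to 4.25 and 2.29 to 6.18 CPM in metatarsal controls, with log2 fold changes of -1.47 ± 0.87 (adjusted p = 0.218) and -1.26 ± 0.94 (adjusted p = 0.341). Hip cap values rest on as few as 2 counts a library.

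The promoters of C1qb and C1qc are shown because these genes run together. Those of Cd68 and Lyz2 are shown because their levels lay apart in opposite directions between the controls used, although neither passed the test. Each is the 250 bases before the RefSeq start on GRCm38.p6, read 5′ to 3′ on the strand of the gene, which is the minus strand for all 4. Capitals mark GAGGAA, a form of the site bound by PU.1, on either strand (TTCCTC where it lies on the other strand), and TGAGTCA, the site of AP-1. They lie at chr4:136886201-136886450, chr4:136892915-136893164, chr11:69666171-69666420 and chr10:117282273-117282522, in the order below.
C1qb: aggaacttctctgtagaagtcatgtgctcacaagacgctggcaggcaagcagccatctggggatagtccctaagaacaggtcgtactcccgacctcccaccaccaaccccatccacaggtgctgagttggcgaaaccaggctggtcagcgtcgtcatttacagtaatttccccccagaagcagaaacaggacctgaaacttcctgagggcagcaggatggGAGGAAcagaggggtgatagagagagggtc
C1qc: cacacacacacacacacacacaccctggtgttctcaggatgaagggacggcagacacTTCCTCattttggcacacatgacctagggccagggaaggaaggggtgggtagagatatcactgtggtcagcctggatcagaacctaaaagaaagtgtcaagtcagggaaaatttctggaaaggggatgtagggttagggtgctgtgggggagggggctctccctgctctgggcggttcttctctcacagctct
Cd68: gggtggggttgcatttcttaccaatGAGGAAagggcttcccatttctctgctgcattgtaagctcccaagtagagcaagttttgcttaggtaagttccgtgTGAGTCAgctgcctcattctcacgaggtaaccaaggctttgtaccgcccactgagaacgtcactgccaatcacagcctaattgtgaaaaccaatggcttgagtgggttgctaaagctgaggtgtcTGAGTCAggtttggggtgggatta
Lyz2: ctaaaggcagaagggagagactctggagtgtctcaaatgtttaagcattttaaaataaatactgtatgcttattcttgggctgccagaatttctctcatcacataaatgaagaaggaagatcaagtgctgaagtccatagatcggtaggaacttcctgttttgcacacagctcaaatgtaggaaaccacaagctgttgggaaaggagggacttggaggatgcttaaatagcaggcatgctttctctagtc
Promoters of 6 of the 10 members were searched, and 5 of these had GAGGAA, a word found in 23.3% of all 32851 promoters of this length. Those of Csf1r, Cd14, Adgre1 and C1qa were not among the promoters searched, so nothing is said of these words in them. In C1qb it lies 30 to 25 bases before the start, in C1qc 193 to 188 bases before it, and the same word is found in Mrc1 and Trem2. Cd68 also had TGAGTCA at 149 to 143 and 24 to 18 bases before the start. Of all promoters, 4.46% had this word at least once, at any place in the window. Neither word is in the Lyz2 window, and other forms of the PU.1 site were not searched. TATAAA, found in 12.4% of all promoters, is in none of the 6. The searched words do not overlap each other in these windows, and a match is a description of the letters alone.

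Counted over the 10 members, in controls 1 was higher in hip caps (Cd14) and 1 lower (Mrc1), against 14.1% of all genes called higher and 15.9% called lower. In that comparison 2 members were higher without overlap (Cd14 and Lyz2), as were 19.6% of all genes, and 5 lower (C1qa, C1qc, Cd68, Mrc1 and Trem2), as were 22.8%. At 5 MPa 4 members were higher (Cd14, Csf1r, Lyz2 and Cd68) and 0 lower, against 18.8% and 19.1% of all genes, and 3 were higher without overlap, against 19.2% of all genes higher and 21.5% lower. At 50 MPa 2 were higher (Cd14 and Csf1r) and 0 lower, against 10.1% and 9.58% of all genes, and 4 were higher (Cd14, Cd68, Csf1r and Lyz2) and 2 lower (C1qb and C1qc) without overlap, against 18.4% and 21.4%. At an unadjusted p under 0.05 the counts of higher and lower members were 2 and 1 in controls, 4 and 0 at 5 MPa, and 2 and 1 at 50 MPa, where 40.3%, 46.1% and 30.7% of all genes had such a p in either direction. DESeq2 gave 2 and 1, 4 and 0, and 2 and 0, and called 33.4%, 42.8% and 23.2% of all genes in either direction. In controls the shares called were near those of all genes. At 5 MPa the 4 of 10 were above the 18.8% of all genes called higher. They were not above the shares in either direction, 46.1% at an unadjusted p under 0.05 and 42.8% with DESeq2. Leaving out 5 MPa hip cap replicate 3, described below, gave 2 members higher and 2 lower in controls, 3 and 3 at 5 MPa, where the lower ones were the C1q genes, and 4 and 1 at 50 MPa. The same fit called 15.5% of all genes higher and 17.5% lower in controls, 19.9% and 15.9% at 5 MPa, and 10.9% and 11.4% at 50 MPa. The median log2 fold change of the members was -0.67 in controls, 0.15 at 5 MPa and 0.37 at 50 MPa, against -0.08, -0.08 and -0.01 over all genes tested. On library sizes alone the median of all genes moved to -0.97, -0.70 and -0.90, and in controls the genes called higher and lower went from 2994 and 3378 to 712 and 8217.

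**Figure D2:**
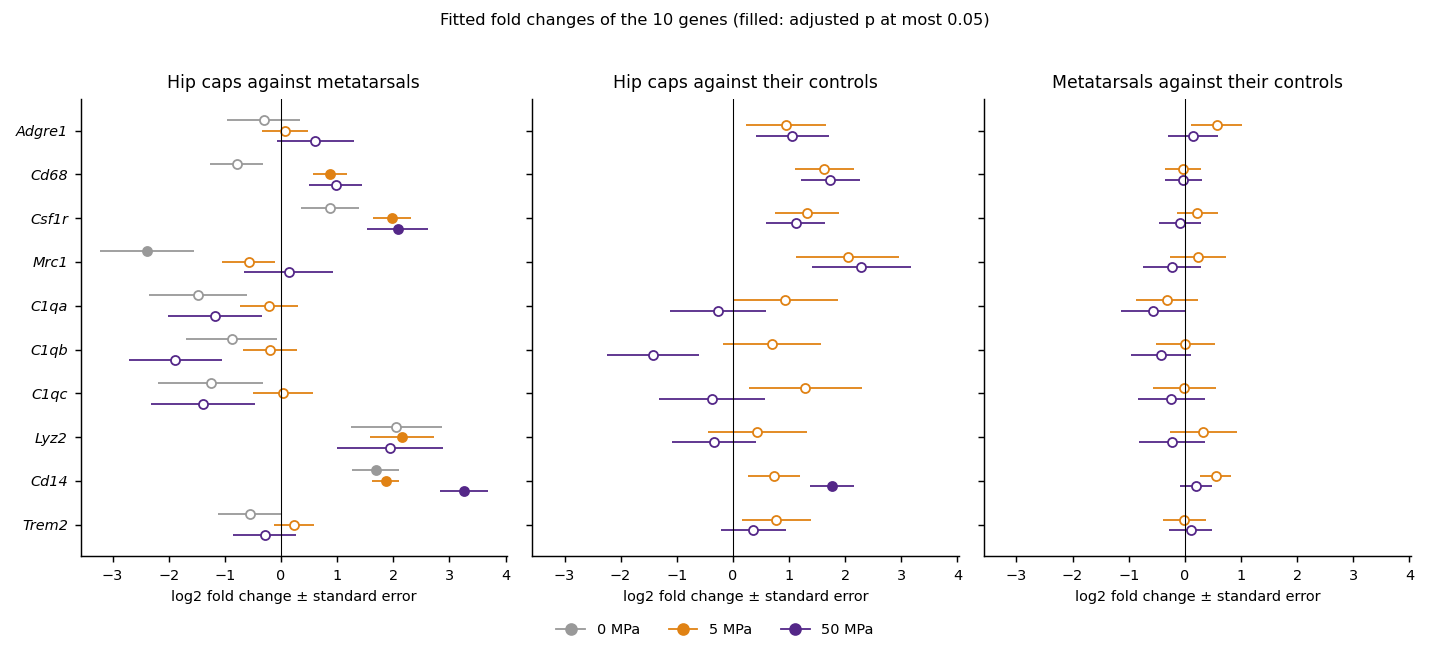
Log2 fold changes (horizontal axes) with standard errors of the 10 macrophage genes (vertical axis) between the tissues at each pressure and against control in each tissue, from edgeR over 22 libraries. Filled points had an adjusted p of at most 0.05, Cd14 lies to the right of 0 in all tissue comparisons, and points of the metatarsal pressure comparisons sit near 0.

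The 5 MPa groups allowed a comparison within 1 run and library type, since all 8 libraries were stranded and, as far as the run is known, of run 2. There the mean CPM of hip caps was 3.64 times that of metatarsals for Cd14 (7.92 ± 1.01 against 2.18 ± 0.57, SD, n = 4 each), 3.91 times for Csf1r (42.5 ± 26.8 against 10.9 ± 2.75) and 4.46 times for Lyz2 (192 ± 200 against 43.0 ± 11.4). All 4 hip cap libraries were above all 4 metatarsal libraries for each of these genes, the only members without overlap there. That choice fixes their two-sided exact permutation p at 0.0286, the smallest value that 4 against 4 libraries allow. Of the other 7, Cd68 had a ratio of 1.83 (exact permutation p = 0.229) and Mrc1 one of 0.669 (exact permutation p = 0.229), and the remaining 5 had exact permutation p of 0.857 to 1.0. On library sizes alone Cd14 kept that p at a ratio of 2.38, and Csf1r (ratio 2.51, exact permutation p = 0.0857) and Lyz2 (ratio 2.82, exact permutation p = 0.114) did not. At 50 MPa the unstranded libraries of run 1 were 3 hip caps and 1 metatarsal sample, in which Cd14 stood at 9.91 to 19.7 CPM against 1.45 CPM, Csf1r at 33.0 to 54.9 against 10.1 CPM, and C1qb at 0.90 to 1.69 against 3.81 CPM. That batch holds 1 metatarsal library, so it gives no test.

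Counts of other members were also set against those of Csf1r within the same library, which cancels the scaling. For every 100 counts of Csf1r, the 22 libraries held 27.03, 10.9 and 42.9 counts of the 3 C1q genes together in hip controls, 23.5, 12.7, 35.3 and 13.6 in 5 MPa hip caps, and 7.31, 14.3 and 10.3 in 50 MPa hip caps. In metatarsals the same quantity was 86.3 to 170 in controls, 87.8 to 140 at 5 MPa and 80.7 to 156 at 50 MPa. The lowest metatarsal library, at 80.7, thus lay well above the highest hip cap library used, at 42.9. Cd68 per 100 Csf1r counts was 31.5 to 97.3 in hip caps and 138 to 250 in metatarsals, and Mrc1 was 0 to 12.6 against 18.1 to 44.9, again without overlap. Cd14 was 10.98 to 59.7 in hip caps and 11.6 to 25.2 in metatarsals, with overlap. Mean Csf1r itself was 1.86, 3.91 and 4.67 times as high in hip caps in controls, at 5 and at 50 MPa, which lowers any ratio to it there. In CPM, mean Cd68 was lower in hip caps in controls (9.3 against 18.7). It was higher at 5 MPa (34.3 against 18.8) and 50 MPa (24.4 against 17.0). The share of all genes that such ratios would set apart was not counted. These ratios were examined after the values were seen and were not tested. By sequence, 14.9% of the words of Csf1r are shared, nearly all with the overlapping gene Hmgxb3.

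**Figure D3:**
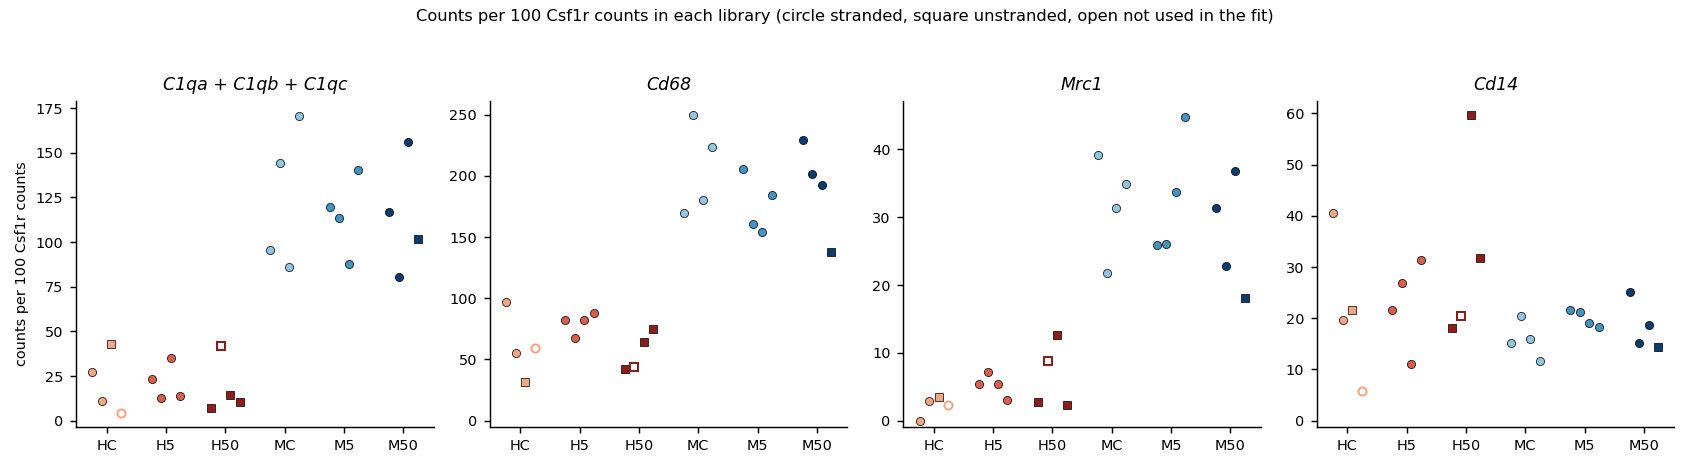
Counts of the 3 C1q genes together, Cd68, Mrc1 and Cd14 per 100 counts of Csf1r (vertical axes) in each library of the hip caps (HC, H5, H50) and metatarsals (MC, M5, M50), circles stranded and squares unstranded. Open markers are the 2 libraries left out of the tests, and C1q, Cd68 and Mrc1 separate the used hip caps from metatarsals, while Cd14 overlaps.

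Pressure was compared with control within each tissue. The comparisons of 5 and 50 MPa share their control libraries. In hip caps at 50 MPa, Cd14 rose from 4.19 ± 0.11 CPM (SD, n = 3) to 14.0 ± 5.08 CPM (n = 3), a log2 fold change of 1.77 ± 0.39 (adjusted p = 0.0195, edgeR), with the 3 pressurised libraries above the 3 controls. The call depended on single libraries. It was lost without hip control replicate 3, the unstranded library of that group (1.85, adjusted p = 0.353), without 50 MPa hip cap replicate 3 (1.35, adjusted p = 0.0706), in hip caps fitted alone (1.78, adjusted p = 0.413), within run 1 (1.75, adjusted p = 0.230) and on library sizes alone (2.07, adjusted p = 0.0875). All 3 of the 50 MPa hip caps were unstranded, as was 1 of the 3 controls, so library type and pressure can be separated in this tissue through that control alone.

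Cd14 was thus 1 of 10 members called higher at 50 MPa and 0 were called lower, against 3.32% and 1.86% of all genes, and 4 members were higher at an unadjusted p under 0.05, as were 22.6% of all genes in either direction. The other 3 of these were Cd68 with a log2 fold change of 1.74 ± 0.52 (adjusted p = 0.0596, edgeR), Mrc1 with 2.29 ± 0.88 (adjusted p = 0.125) and Csf1r with 1.12 ± 0.52 (adjusted p = 0.216). DESeq2 called 2 members higher, Cd14 and Cd68 (1.77, adjusted p = 0.00373), and 11.5% of all genes in either direction. In edgeR, Cd68 passed on leaving out hip control replicate 2 (adjusted p = 0.0426) or 5 MPa hip cap replicate 2 (0.0469), 3 (0.00669) or 4 (0.0379). Without overlap, 5 members were higher than control (Adgre1, Cd14, Cd68, Csf1r and Mrc1), against 8.19% of all genes. Adgre1, at a log2 fold change of 1.06 ± 0.64 (adjusted p = 0.346), went from 4.59 ± 2.04 to 11.1 ± 4.15 CPM. The C1q genes and Lyz2 had fitted changes below 0, the lowest that of C1qb at -1.42. The group means, which take no account of run or library type, ran the other way for Lyz2 (146 to 169 CPM), C1qa (1.29 to 1.76 CPM) and C1qc (1.22 to 1.32 CPM). The median over the members was 0.71, against 0.02 over all genes tested.

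In hip caps at 5 MPa all 10 members had a fitted change above 0, with a median log2 fold change of 0.94 against 0.01 over all genes tested, and 0 passed edgeR's test, as did 0.0188% of all genes. At an unadjusted p under 0.05, met by 14.8% of all genes, there were 3, namely Cd68 at 1.63 ± 0.52 (adjusted p = 0.182, edgeR), Csf1r at 1.33 ± 0.57 (adjusted p = 0.292) and Mrc1 at 2.05 ± 0.92 (adjusted p = 0.305). DESeq2 called 1, Cd68 (1.63, adjusted p = 0.0376), and 2.71% of all genes. Cd68 and Cd14 (0.73 ± 0.46, adjusted p = 0.459, edgeR) lay above the controls in all 4 libraries, as did 8.4% of all genes. Fitted without terms for run and library type, Cd68, Csf1r, Mrc1 and Cd14 passed (log2 fold changes of 1.90, 1.29, 2.17 and 0.91, with adjusted p of 0.00523, 0.0292, 0.0443 and 0.0355), and 4.44% of all genes were then called higher. Since run, as far as it is known, and pressure coincide in these hip caps, the part of the run in these values cannot be told apart.

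The 5 MPa hip caps differed among themselves. Replicate 3 was the highest of the 4 libraries for 10 of 10 members, by a median factor of 3.81 over the mean of the other 3, from 1.18 for Cd14 to 5.99 for C1qc. It was also the highest for neutrophil markers (215 CPM summed, against 16.7 CPM in the lowest of the 4), lymphocyte markers (11.9 against 1.55 CPM), endothelial markers (278 against 65.0 CPM) and osteoclast markers (1832 against 624 CPM), and lowest for chondrocyte markers (22430 CPM). The part of these cells in the values of the members was not tested. Without this library the mean of the 5 MPa hip caps was 2.50 times that of hip controls for Cd68, 1.81 times for Cd14, 1.73 times for Csf1r and 3.70 times for Mrc1, and 0.63 times for Lyz2, 0.89 times for C1qa, 1.12 times for C1qb and 1.55 times for C1qc. Cd14 was then 3.48 times and Csf1r 2.72 times the mean of 5 MPa metatarsals, and C1qa, C1qb and C1qc 0.40, 0.43 and 0.45 times. Fitted on the 7 remaining libraries of the 5 MPa groups, 3 members were called higher and 4 lower in hip caps, in place of 3 and 0 with the library kept, and of all genes 25.6% were called higher and 21.9% lower. The 4 lower ones were Adgre1, Mrc1, C1qa and C1qb, and this fit was chosen after seeing the data.

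In metatarsals no change of a member with pressure was established. Cd14 at 5 MPa came closest, at 0.55 ± 0.28 (unadjusted p = 0.059, edgeR). At 5 MPa the log2 fold changes against control ran from -0.32 (C1qa) to 0.57 (Adgre1), with standard errors of 0.28 to 0.60, and at 50 MPa from -0.57 (C1qa) to 0.20 (Cd14), with standard errors of 0.28 to 0.59. No member passed edgeR's test at either pressure, and edgeR called 0.0% of all genes at 5 MPa and 0.0% at 50 MPa. At an unadjusted p under 0.05 there were 0 members, against 3.24% and 3.89% of all genes, and DESeq2 called 0 members, against 0.0611% and 0.0423%. No member's groups were apart, whereas 2.88% of all genes were at 5 MPa and 4.48% at 50 MPa.

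Whether pressure acted differently in the tissues was tested by the interaction term, and 0 members passed edgeR's test at either pressure, against 0.0188% of all genes at 5 MPa and 0.132% at 50 MPa. At an unadjusted p under 0.05, met by 11.2% of all genes at 5 MPa and 18.3% at 50 MPa, there were 1 at 5 MPa, Cd68 (1.66 ± 0.55 on the log2 scale, adjusted p = 0.322, edgeR), and 3 at 50 MPa, Cd14 (1.57 ± 0.44, adjusted p = 0.0822), Cd68 (1.76 ± 0.55, adjusted p = 0.109) and Mrc1 (2.52 ± 0.94, adjusted p = 0.156). DESeq2 called 0 at 5 MPa and 2 at 50 MPa, Cd14 (1.60, adjusted p = 0.0184) and Cd68 (1.80, adjusted p = 0.0132), against 0.601% and 6.34% of all genes. In edgeR, Cd14 passed without hip control replicate 2 (adjusted p = 0.0416) and Cd68 without 5 MPa hip cap replicate 3 (adjusted p = 0.0195). A difference between the tissues in their response was therefore not established for any member by edgeR over the 22 libraries.

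The 2 libraries that were left out each stood apart from their group. Hip control replicate 4 held 93.8 CPM of Cd68, 157 CPM of Csf1r, 29.9 CPM of Adgre1 and 3.68 CPM of Mrc1, or 10.1, 9.18, 6.51 and 8.46 times the mean of the other 3 controls, while C1qa stood at 0.49 CPM, 0.382 times that mean, and C1qc at 1.20 CPM. Trem2 and C1qb were above the group in both libraries, at 2.54 times each in hip control replicate 4. Its osteoclast markers summed to 4941 CPM, against 392 to 592 CPM in the other controls, and its chondrocyte markers to 9617 CPM. The part of these cells in its values was not tested. 50 MPa hip cap replicate 2 held 7.08 CPM of Cd68 and 3.30 CPM of Cd14, or 0.29 and 0.236 times the mean of the other 3, and 11.2 CPM of Trem2, 2.87 times, with C1qb at 1.61 times and chondrocyte markers at 14530 CPM. With all 24 libraries the log2 fold change of Csf1r in hip caps against control became -0.75 at 5 MPa and -0.23 at 50 MPa, that of Cd68 at 5 MPa -0.35, and Cd14 at 50 MPa was 1.23 (adjusted p = 0.282, edgeR). The direction of Cd68 and Csf1r at 5 MPa therefore rests on leaving out hip control replicate 4.

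Genes of the members' pathways were counted by lists chosen for their function. Of all genes, 14.1%, 18.8% and 10.1% were called higher in hip caps in controls, at 5 and at 50 MPa. The shares called lower were 15.9%, 19.1% and 9.58%. In hip caps at 50 MPa against control, 3.32% were called higher and 1.86% lower. These shares stand beside the counts of all lists below. Both ligands of the Csf1r receptor were higher in hip caps in all 3 tissue comparisons. Csf1 had log2 fold changes of 1.08 ± 0.36 (adjusted p = 0.0315, edgeR), 1.89 ± 0.26 (adjusted p = 7.66e-06) and 1.49 ± 0.39 (adjusted p = 0.0103) in controls, at 5 and at 50 MPa, and Il34 2.39 ± 0.61 (adjusted p = 0.0056), 2.79 ± 0.35 (adjusted p = 2.04e-06) and 1.53 ± 0.53 (adjusted p = 0.0471). Csf1 was measured at 73.6 CPM in hip controls, 149 and 140 CPM after 5 and 50 MPa, and 35.5 CPM in metatarsal controls. Neither ligand passed the test with pressure in either tissue, and Csf1 in hip caps had log2 fold changes of 0.92 ± 0.40 at 5 MPa (adjusted p = 0.294, edgeR) and 0.60 ± 0.38 at 50 MPa (adjusted p = 0.368).

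Of the 6 partners of C1q in the complement pathway, 1 was higher and 3, 3 and 2 were lower in hip caps in controls, at 5 and at 50 MPa. C4b, which is cleaved by the activated C1 complex, was the higher one, at 3.09 ± 0.43 on the log2 scale in controls (adjusted p = 2.3e-05, edgeR) and a mean of 284 CPM in hip controls against 29.0 CPM in metatarsal controls. The protease C1s1 (-1.60 ± 0.37, adjusted p = 0.00302) and C2 (adjusted p = 0.000549), the other substrate of that complex, were lower, C2 at 1.38 against 12.1 CPM. Of the 7 genes of CD14 and TLR4 signalling, 1, 3 and 2 were higher and 0 lower. Lbp, the plasma protein that loads lipopolysaccharide onto CD14, was higher throughout (2.58 ± 0.36 in controls, adjusted p = 2e-05), and Tlr4 itself at 5 MPa (1.45 ± 0.20, adjusted p = 7.71e-06) and 50 MPa (1.37 ± 0.34, adjusted p = 0.00534).

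Of the 7 tested genes of TREM2 signalling, 1, 3 and 0 were higher and 0 lower in hip caps. Apoe, a lipid carrier bound by TREM2, was higher in controls (1.76 ± 0.27, adjusted p = 4.63e-05, edgeR) and fell in hip caps at 50 MPa by 1.24 ± 0.26 on the log2 scale (adjusted p = 0.0173), from 350 to 172 CPM, while the adaptor Tyrobp passed in no comparison of the tissues. Of 10 lysosomal genes, 3, 5 and 3 were higher and 2, 1 and 0 lower in hip caps, and those that rose in hip caps at 50 MPa included Lamp2 (1.47 ± 0.36, adjusted p = 0.0251) and Npc2 (0.87 ± 0.22, adjusted p = 0.0302). Of 10 tested genes of macrophage activation, 3, 6 and 5 were higher and 1, 1 and 0 lower in hip caps, and 3 rose at 50 MPa, the chemokines Ccl2 (2.54 ± 0.44, adjusted p = 0.011), Ccl3 (3.24 ± 0.73, adjusted p = 0.0203) and Cxcl2 (1.38 ± 0.39, adjusted p = 0.0464). Ccl2 and Cxcl2 are also made by stromal cells. No gene of these lists passed in hip caps at 5 MPa or in metatarsals, where edgeR called 0.0188% and 0.0% of all genes.

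Of 29 tested companion genes of macrophages, 3 were higher and 3 lower in hip cap controls, 10 and 5 at 5 MPa, and 9 and 4 at 50 MPa. In any comparison of pressure 0 passed with edgeR. At an unadjusted p under 0.05, 5 were higher in hip caps at each pressure and 1 was lower at 5 MPa. Of all genes, 14.8% at 5 MPa and 22.6% at 50 MPa had such a p in either direction. DESeq2 calls were kept for the 10 members alone. Spi1, which encodes PU.1, was higher in hip caps at 5 MPa (1.95 ± 0.40, adjusted p = 0.000544, edgeR) and 50 MPa (2.15 ± 0.68, adjusted p = 0.0295) but not in controls (1.27 ± 0.67, adjusted p = 0.163). F13a1, a transglutaminase that chondrocytes also make, stood furthest apart at 425 CPM in hip controls and 4.75 CPM in metatarsal controls. Mertk, a receptor for dying cells, was lower in hip caps throughout (-0.71 ± 0.16 in controls, adjusted p = 0.00176), as was Ms4a7, a gene of resident macrophages (-1.99 ± 0.41, adjusted p = 0.000865).

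Markers of other cells differed in their course. All 10 chondrocyte markers were called higher in hip caps in controls, at 5 and at 50 MPa. Of 8 fibroblast and synovial lining markers, 2, 4 and 3 were higher and 4, 3 and 3 lower. Of 9 tested osteoclast genes, 3, 8 and 6 were higher and 0 lower in hip caps in controls, at 5 and at 50 MPa. In hip caps under pressure 0 passed, and 4 at 5 MPa and 5 at 50 MPa were higher at an unadjusted p under 0.05. Such a p was met by 14.8% and 22.6% of all genes in either direction. The osteoclast markers summed to 392 to 592 CPM in hip controls, 624 to 1832 and 607 to 1808 CPM in 5 and 50 MPa hip caps, and 111 to 163 CPM in metatarsals. The protease Mmp9 led in hip controls at 216 CPM, with the phosphatase Acp5 at 117 CPM and Ctsk at 54.1 CPM, against 21.2, 2.97 and 24.7 CPM in metatarsal controls, and Calcr, the calcitonin receptor, was at 0 in 13 of the 22 libraries. Of 10 tested neutrophil genes, 0, 7 and 0 were higher and 1, 0 and 0 lower, with sums of 15.2 to 56.0, 16.7 to 215 and 8.98 to 33.0 CPM in the hip cap groups and 8.06 to 12.9 CPM in metatarsals. The part of osteoclasts and neutrophils in the values of Csf1r, Cd68, Cd14 and Lyz2 was not tested. Lymphocyte markers summed to 0 to 11.9 CPM in the 22 libraries, highest in 5 MPa hip cap replicate 3. Of 6 tested mast cell genes, 6, 5 and 4 were lower in hip caps, with sums of 3.26 to 32.2 CPM against 32.4 to 82.1 CPM in metatarsals.

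**Figure D4:**
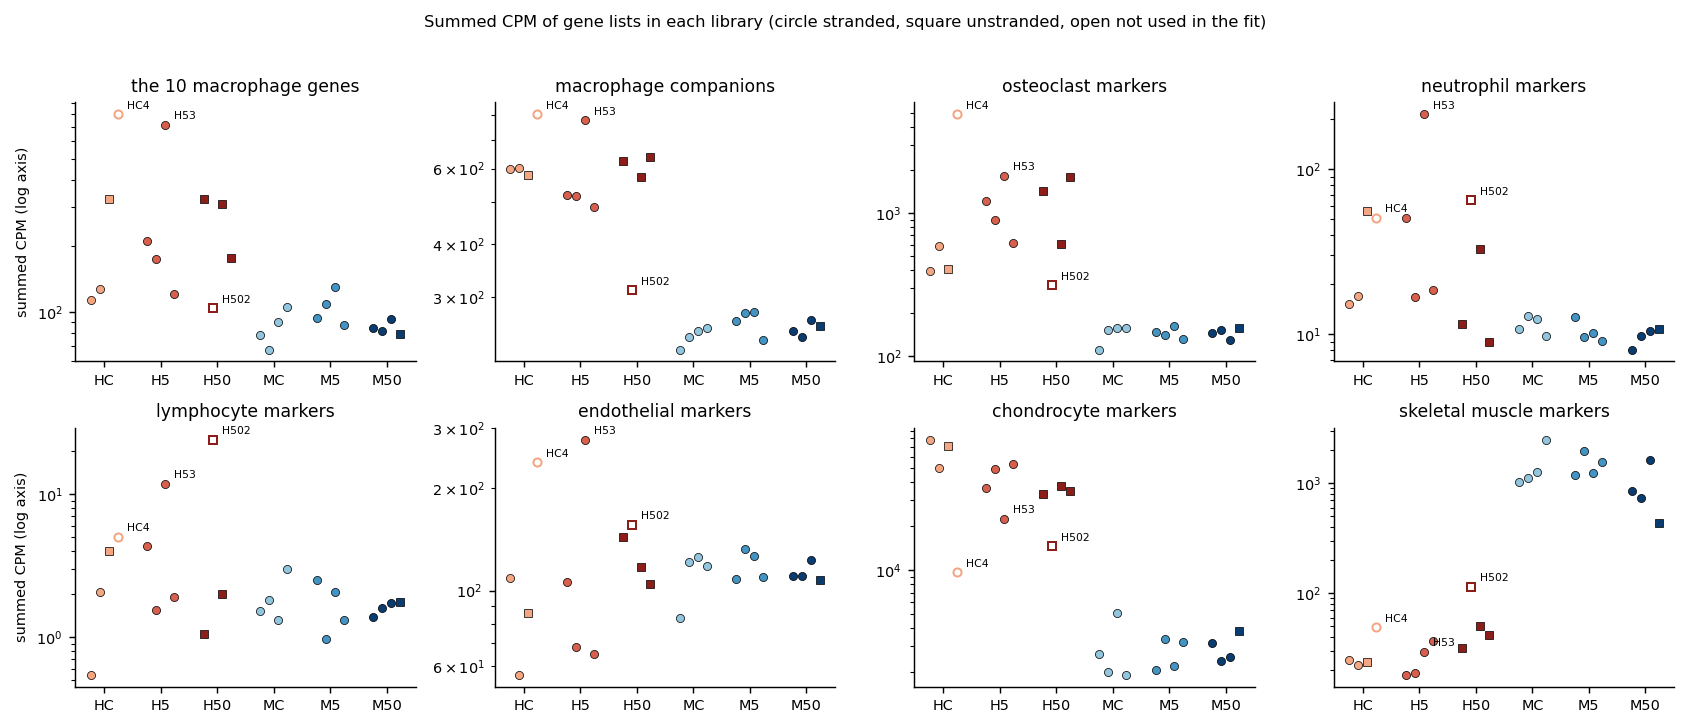
Summed CPM of the 10 macrophage genes and of marker lists of other cells (vertical axes, log scale) in each library of the hip caps (HC, H5, H50) and metatarsals (MC, M5, M50), circles stranded and squares unstranded, where HC4 is hip control replicate 4, H502 50 MPa hip cap replicate 2 and H53 5 MPa hip cap replicate 3. Open markers are the 2 libraries left out, the lymphocyte sum of 0 in 50 MPa hip cap replicate 4 cannot be drawn on a log axis, osteoclast and chondrocyte markers separate the tissues, and 5 MPa hip cap replicate 3 is high for neutrophil and lymphocyte markers.

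The genes whose course over the 22 libraries was closest to each member were ranked by the root mean square (RMS) difference of log2 CPM after centring each gene. For Csf1r these were Ctsk, an osteoclast protease, at 0.25, Laptm5 at 0.30 and its ligand Csf1 at 0.31, where Csf1r itself had an RMS of 0.99 around its mean. For Adgre1 they were Mpeg1 and Ctss, both of macrophages, at 0.25 and 0.27, and Adgrl4 at 0.28. Cd68 was closest to the Fc receptor chain Fcer1g at 0.28, then to Elovl1 and Tmem123 at 0.31 each. Trem2 was closest to Synj2 at 0.28, Ptafr at 0.29 and Frmd4a at 0.30. Lyz2 was closest to the leukocyte integrin Itgb2 at 0.39, Srxn1 at 0.495 and Tnfaip2 at 0.51. Cd14 was closest to the ferritin gene Fth1 at 0.36, and to the chemokine Cxcl2 and Ampd3 at 0.39 each. The nearest genes of the C1q genes and of Mrc1 lay further off. They were at 0.45 for C1qa (Zeb2os), 0.51 for C1qb (Gpnmb), 0.46 for C1qc (Gucy1a1) and 0.47 for Mrc1 (Slit2). Among the members the closest pairs were Adgre1 with Trem2 at 0.49, C1qa with C1qc at 0.49, and Csf1r with Cd14 at 0.53. All genes share libraries, depth and scaling, so these differences are descriptions.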

How the data were processed

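RNA of hip caps and metatarsals was measured in 24 libraries of 6 groups. The authors trimmed reads with Trim Galore 0.6.5, quantified them against GRCm39 with kallisto and collapsed the result to genes with tximport. The deposited values are estimated counts, not normalized by the authors. Of the values 27.005% were not whole, and all were rounded. The table held 0 columns of other samples, and some items are not reported here. Pressures, written mPa in the labels, were read as MPa as in the methods. Replicates are hip caps of separate mice or pools of metatarsals.

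The 10 genes and all lists were chosen with earlier results of these data known. Genes were named from GENCODE M21 (GRCm38), whose exon lengths gave CPM per kb, and promoters came from RefSeq on GRCm38.p6. Counts were kept by filterByExpr, scaled by TMM and fitted with edgeR 4.0.16 (robust quasi-likelihood, two-sided) in R 4.3.3, with terms for group, sequencing run and library type over 22 libraries. Run 1 held 9 and run 2 15 libraries, read from a colour strip of the study's heat map, whose split does not match the numbers of libraries per sequencing kit in the methods, so the run is uncertain, and 6 libraries were unstranded. Standard errors came from the fold change and its F statistic, and log2 CPM used a prior count of 2. The 10 genes were named throughout, list genes where they passed the test or were among the 5 most abundant of a list, and for each of the 10 the genes of most like course. Tyrobp and Calcr were named after their values were seen. Alternatives were DESeq2 1.42.0, library sizes alone, RLE factors, no filter, all 24 libraries, other batch terms, a replicate block, each tissue or run alone and leaving out each library. Keeping hip control replicate 4 alone of the 2 libraries left out, and the 5 MPa groups of run 2 without hip cap replicate 3, were chosen after seeing the data. Library totals between 4185241 and 25104240 set the precision. The size of changes resting on fewer than 3 counts in a library was read as undetermined, but members with such values stay in the counts of members.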

Additional observations from a re-analysis of the deposited data

Results flagged for a closer look

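Over all 24 libraries, 60 groups of 4 values of the 10 members were examined for a library far from the other 3, and 10 values were flagged by Dixon's test at a critical value of 0.829, where chance flags about 5%. Of these, 4 are from hip control replicate 4, which stood at 29.9 CPM for Adgre1, 93.8 CPM for Cd68, 157 CPM for Csf1r and 8.98 CPM for Cd14, each the highest of its group, and 2 from 5 MPa hip cap replicate 3, at 490 CPM for Lyz2 and 12.1 CPM for Trem2. The others were Mrc1 at 4.16 CPM in 50 MPa hip cap replicate 3 and at 1.66 CPM in metatarsal control replicate 2, Csf1r at 10.1 CPM in 50 MPa metatarsal replicate 4, and Trem2 at 6.64 CPM in metatarsal control replicate 4. Osteoclast markers summed to 4941 CPM in hip control replicate 4 and neutrophil markers to 215 CPM in 5 MPa hip cap replicate 3, both the highest of their groups, and their part in these values was not tested.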

How the results depend on the processing

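Of the members' fold changes that the text turns on, 239 values under alternatives over all libraries kept direction and side of the threshold, 26 gained and 18 lost the threshold, and 8 reversed. With hip control replicate 4 in, Cd68 went to 0.84 (all 24 libraries) and 0.87 (50 MPa hip cap replicate 2 still out) in controls of the tissues, to -0.35 and -0.37 in hip caps at 5 MPa and to -0.0024 in the interaction at 5 MPa, Csf1r to -0.75 and -0.78 in hip caps at 5 MPa, and to -0.23 at 50 MPa. No other alternative reversed one.

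In controls of the tissues, 1 member higher became 2 with DESeq2 or library type as the sole batch term, 3 with no batch terms or with hip control replicate 4 in, and 0 on library sizes alone, and 1 lower became 3 on library sizes alone, 2 with no batch terms and 0 without a filter. At 5 MPa, 4 higher became 2 on library sizes alone, and 0 lower became 4 in run 2 without hip cap replicate 3. At 50 MPa, 2 higher became 1 and 0 lower became 1 on library sizes alone, and 1 lower was called with no batch terms. In hip caps at 5 MPa, 0 higher became 1 with DESeq2 and on library sizes alone, 2 with library type alone and 4 with no batch terms, while all genes called higher came to 408, 45, 572 and 944 under these. In hip caps at 50 MPa, 1 higher became 2 with DESeq2, library type alone or no batch terms, and 0 on library sizes alone, with all 24 libraries, with hip control replicate 4 in, in hip caps alone and in run 1. The interaction at 50 MPa gave 2 with DESeq2. The causes were not tested.

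Leaving out each library in turn gave 0 to 2 higher and 0 to 2 lower in controls of the tissues, 3 to 4 and 0 to 3 at 5 MPa, 1 to 4 and 0 to 1 at 50 MPa, 0 to 2 higher in hip caps at 50 MPa and 0 to 1 in the interaction at 50 MPa. The ratios at 5 MPa ran from 3.27 to 3.92 for Cd14, 2.72 to 4.58 for Csf1r and 2.14 to 5.44 for Lyz2, each at an exact permutation p of 0.0571, the smallest that 3 against 4 allow. On library sizes alone the ratios of Csf1r and Lyz2 were 2.51 and 2.82. Same-numbered libraries deviated together with a median correlation of 0.018 over 50 pairs (-0.29 to 0.17), so they share only a number, and the replicate block left 3 members higher at 5 MPa, Cd68 at 0.82 (adjusted p = 0.0595, edgeR). Values with a library left out were kept for the 10 members alone. The C1q genes and Mrc1 had as few as 0 to 3 counts in single hip cap libraries.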
